A study of Caenorhabditis elegans with 2 samples.

Results

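The heterochronic regulators of larval timing were taken as 10 named genes of the nematode Caenorhabditis elegans, out of 19973 nuclear protein-coding genes. They are the early regulators lin-14, lin-28 and lin-46, the middle regulators hbl-1, daf-12 and lin-41, the late regulators lin-29, mab-10 and lin-42, and the post-transcriptional regulator puf-9. Some of them had been selected on the peaks of these same samples, so their ranks and signal values are given as a description, with no test. ChIP-seq, in which DNA held by a protein is pulled down with an antibody and sequenced, was used to locate an eGFP-tagged copy of the nuclear hormone receptor NHR-11. The 2 biological replicates form 1 group. Each has 1 technical replicate, with a fragment size range of 150 to 350 bp. Both came from whole L2 larvae of mixed sex of strain OP305, genotype unc-119(ed3) III; wgIs305, in which the integrated transgene wgIs305 carries the tagged nhr-11. The antibody is labelled nhr-11, while the transgene's promoter and copy number were not given in the sources used here. No untagged strain, other stage or other factor was analysed here, so whether a given peak belongs to NHR-11 in particular was not tested.

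Heterochronic genes set the order of the larval stages: they decide, for instance, when the seam cells of the skin divide symmetrically and when they stop dividing and make adult cuticle. Early genes such as lin-14 and lin-28 hold cells in early programmes. The microRNAs lin-4 and let-7 and other members of the let-7 family shut off genes of the pathway. Their targets include lin-14, lin-28, hbl-1 and lin-41, while lin-29 and its cofactors act last. The L2 stage sampled here is the one in which lin-28, hbl-1 and daf-12 act and in which daf-12 takes part in the choice between the L3 stage and the dauer larva.

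A peak was taken as lying in a gene's promoter window when its summit was from 1000 bp upstream to 500 bp downstream of any annotated transcript 5′ end, and as lying in or near a gene when its summit was within the gene or 2000 bp to either side. All positions are on build ce11. The pooled list, called on both replicates together, held 13299 peaks, and the 280 with the highest signal made up the thresholded list, of which 254 were nuclear. The list of replicate 1 held 25831 peaks and that of replicate 2 held 27015. These longer lists were deposited as peaks and background together: by the deposited q-values, 6.16% of the pooled peaks had a q of 0.05 or less. Signal is the authors' own value for each peak and serves only to order peaks inside a list, since its scale differs between lists. The lists hold no read counts, which leaves the depth of each replicate and the precision it gives unknown.

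Of the 10 genes, puf-9, mab-10 and lin-42 had a thresholded peak in a promoter window, a count of 3 set beside 0.801% of all nuclear protein-coding genes. With the flanks and gene bodies included the count was again 3, beside 2.09% of all genes. In the pooled list 9 of 10 had a promoter-window peak, all but lin-46, beside 24.7% of all genes. When the 1000 strongest pooled peaks alone were used, 5 had one (puf-9, mab-10, lin-42, daf-12 and lin-14), beside 2.95% of all genes. All 10 had a promoter-window peak in both replicate lists, beside 21.4% of all genes. All 10 also had a pooled peak in or near the gene, beside 54.7% of all genes. Since the genes were selected on such peaks, nothing is read from the distance between these counts and the shares over all genes. The threshold fell between signals of 27.4468 at rank 280 and 27.433 at rank 281. Among the peaks of the 10 genes, the nearest to it on the inside was a lin-42 peak with a signal of 31.7 at rank 172. The nearest of them on the outside was a lin-41 peak with a signal of 23.4 at rank 473.

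**Figure D1:**
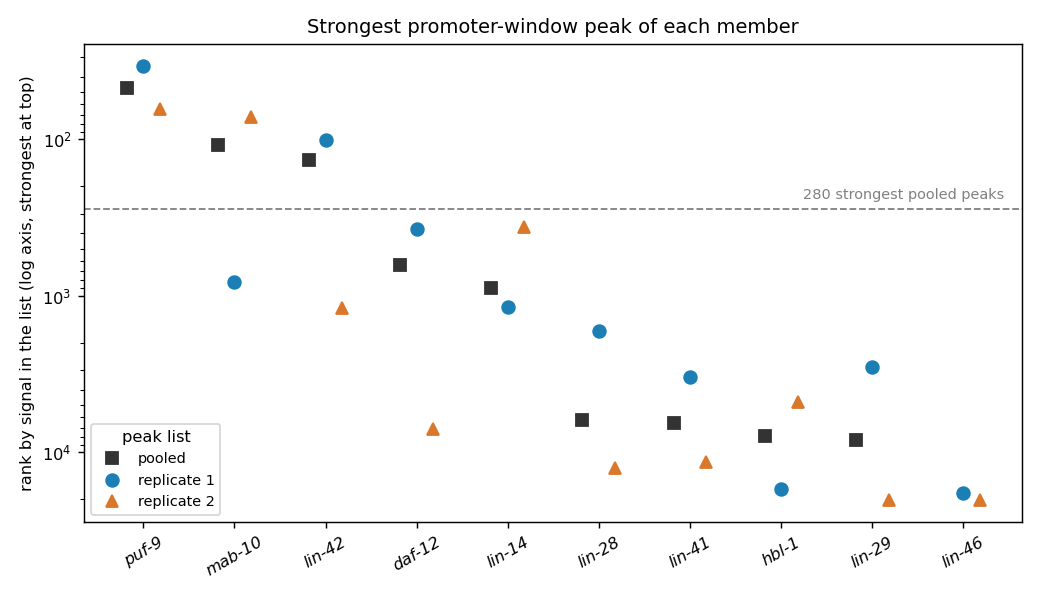
Rank by signal (log axis, strongest at top) of the strongest promoter-window peak of each gene in the pooled list (squares), replicate 1 (circles) and replicate 2 (triangles), with a dashed line at rank 280, the end of the thresholded list. The strongest peak was taken in each list separately, so the marks of a gene can stand for different sites. The puf-9 peak ranks 47 in the pooled list, 34 in replicate 1 and 64 in replicate 2, while the marks of mab-10, lin-42 and daf-12 are spread apart. For daf-12 the replicate 2 mark, at rank 7060, is a peak at another 5′ end. The replicate 2 peak matching the pooled daf-12 mark ranks 21851. The lin-29 mark of replicate 2 is also at another 5′ end. There is no pooled mark for lin-46.

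The DNA at 4 summits is shown, because these are the strongest promoter-window peaks of the genes that passed the threshold and, for comparison, the strongest peak of the nuclear receptor gene daf-12, which did not. Each run holds the pooled summit and 50 bp to either side, from the ce11 RefSeq genome, written 5′ to 3′ on the strand from which the gene is transcribed. Capitals mark matches, on either strand, to any of 9 searched motifs. The nuclear receptor half-site AGGTCA was searched with its relatives, which are written as AAGTCA in the first case, as AGTTCA in the next and as AGTGCA in the last. The others were TGATAA, the motif of GATA factors, the repeat GAGAG, the E-boxes spelled CACGTG or else spelled CACCTG, and the TATA box motif TATAAA.
puf-9, chrX:5841224-5841324, forward strand: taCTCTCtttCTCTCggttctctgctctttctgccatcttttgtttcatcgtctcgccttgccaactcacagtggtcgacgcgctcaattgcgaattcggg
mab-10, chrII:10527726-10527826, forward strand: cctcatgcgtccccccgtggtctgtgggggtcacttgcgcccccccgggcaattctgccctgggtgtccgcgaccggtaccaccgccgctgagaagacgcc
lin-42, chrII:1239686-1239786, reverse strand: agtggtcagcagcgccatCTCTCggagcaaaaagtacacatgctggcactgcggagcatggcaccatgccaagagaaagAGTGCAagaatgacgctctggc
daf-12, chrX:10637420-10637520, forward strand: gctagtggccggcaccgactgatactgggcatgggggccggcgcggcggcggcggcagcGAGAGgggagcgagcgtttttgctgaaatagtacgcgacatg

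The mab-10 run is the richest in G and C of these, at 71.3%, followed by daf-12 at 67.3%, lin-42 at 55.4% and puf-9 at 50.5%. The median over all nuclear thresholded summits was 45.5%, and over 279608 windows of the same length tiled across all protein-coding promoter windows it was 34.7%. None of the 72 runs of 30 bases in any of the 4 windows occurred anywhere else in the genome. The 4 thresholded summit windows of these genes are the 3 of puf-9, mab-10 and lin-42 above and that of a lin-42 peak in the 3′ UTR. AGGTCA was in none of the 4, in 1.97% of all 254 nuclear thresholded windows and in 2.5% of the tiles. The same held for AAGTCA, found in none of the 4, in 3.15% of all thresholded windows and in 4.76% of the tiles, and for AGTTCA, with none of the 4, 3.94% and 7.01%. AGTGCA was in 1 of the 4, the lin-42 window shown, at 29 bp from the summit, and in 5.12% of all thresholded windows and 3.39% of tiles. GAGAG was in 2 of the 4, as CTCTC at 48 and 40 bp from the puf-9 summit and at 32 bp from the lin-42 one, and in 31.1% of all thresholded windows and 13.2% of tiles. The daf-12 window held GAGAG at 9 bp from its summit. Distances run from the summit to the first base of the match as printed. TATAAA was in the lin-42 3′ UTR window, and in 11.8% of all thresholded windows and 12.3% of tiles. TGATAA (4.33% and 10.1%), CACGTG (2.36% and 1.71%) and CACCTG (3.15% and 2.6%) were in none of the 4. A match is a description of letters, and no match says only that these letters were not in this window.

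Among the early regulators, lin-14 had many peaks of middling rank spread along the gene. It encodes a nuclear protein that promotes L1 fates and is the classic target of the lin-4 microRNA (WBGene00003003, X, 11465560 to 11485871, forward strand). Its strongest promoter-window peak had its summit 733 bp upstream in intergenic DNA, with a pooled signal of 19.1 at rank 890. The strongest overlapping peak had a signal of 11.8 at rank 1180 in replicate 1, with its summit 322 bp from the pooled one, and of 12.01 at rank 364 in replicate 2, with its summit 104 bp away. Replicate 1 also held a weaker overlapping peak, with a signal of 8.53 at rank 3785, whose summit at 11464867 was closer to the pooled summit at 11464827. In all 12 pooled peaks lay in or near lin-14, of which 4 were among the 1000 strongest. Another of the 4, the peak at rank 849, lay in an intron 7443 bp downstream of the 5′ end and was strong in replicate 2 alone. It had a signal of 17.2 at rank 107 there, and no replicate 1 peak overlapped the pooled one. The replicate 2 peak itself overlapped a replicate 1 peak at rank 16386. The strongest replicate 1 peak at lin-14, at rank 740, had its summit nearby at 11472379 and matched the pooled peak at rank 3455. A pair of peaks lay in the 3′ UTR, at ranks 2100 and 2388. Both were within 500 bp of the snoRNA gene T25C12.12, and the one at rank 2100 also of the snoRNA gene T25C12.11.

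The gene lin-28 encodes an RNA-binding protein that blocks maturation of let-7 and keeps L2 fates (WBGene00003014, chromosome I, 8407630 to 8410804, reverse strand). It had 1 pooled peak in or near it, in an intron and 145 bp upstream of the internal 5′ end, with a signal of 10.8 at rank 6242. The matching peak ranked 1678 in replicate 1 with a signal of 10.7 and 12678 in replicate 2 with a signal of 4.28, and its summit was 201 bp and 417 bp away. Both of these summits lay downstream of the pooled one along the gene, and their intervals overlapped. Replicate 1 also held a peak with its summit at 8410071, close to the pooled summit at 8410065, with a signal of 4.02 at rank 25244. The matched peaks stood far apart in rank, at 6.496% and 46.9% of their lists, and the pooled peak was far from the q of 0.05 (minus log10 q of 0.151). The gene lin-46 encodes a gephyrin-like protein that acts opposite to lin-28 (WBGene00003031, V, 12968855 to 12970730, forward strand). It alone had no pooled promoter-window peak. In replicate 1 its promoter window held a peak 610 bp upstream with a signal of 4.798 at rank 18332. In replicate 2 it held a peak 6 bp from the 5′ end with a signal of 3.33 at rank 20193. By rank these stand 70.97% and 74.7% of the way down their lists, and they are at different places. Both also lay in the promoter window of the neighbouring gene R186.8. The 1 pooled peak by lin-46, at rank 9946, lay past its end and in the promoter window of pnn-1.

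Among the middle regulators, daf-12 had many pooled peaks, more than any other of the 10 genes. In the replicate lists lin-14 had more, with 28 beside 23 for daf-12 in replicate 1 and 19 beside 15 in replicate 2. Per kb searched, the pooled peaks were densest at hbl-1, at 0.624 per kb, beside 0.429 at daf-12. The gene daf-12 encodes the nuclear hormone receptor for dafachronic acids, which links nutrition to the choice between dauer and reproductive growth (WBGene00000908, X, 10635908 to 10666875, forward strand, 10 transcripts from 9 annotated 5′ ends). In or near it were 15 pooled peaks, a number reached or passed by 11 of all genes (0.0551%). That count is over 34968 bp searched, beside a median of 6.027 kb over all genes. Of the 15 peaks, 4 had a q of 0.05 or less, while none was thresholded. The strongest, whose sequence is shown above, had its summit in an intron 1562 bp downstream of the first 5′ end, with a pooled signal of 21.7 at rank 595. It ranked 4079 in replicate 1 with a signal of 8.33 and 211 in replicate 2 with a signal of 13.97. The other 3 went the opposite way and were strong in replicate 1 alone. The promoter-window peak, 487 bp upstream of an internal 5′ end and in an intron, had a pooled signal of 21.1 at rank 640, with rank 374 in replicate 1 and rank 21851 in replicate 2. Peaks at pooled ranks 619 and 743 lay 155 bp and 994 bp past the end of the gene, each within 500 bp of a tRNA gene (WBGene00014321 and WBGene00014320). They ranked 766 and 250 in replicate 1, and 20700 and 21324 in replicate 2. Replicate 2 also held an intronic peak at rank 342 with a signal of 12.3 that overlapped no pooled peak and no peak of replicate 1.

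The strongest peak by lin-41 lay upstream of its promoter window. The gene encodes a TRIM-NHL RNA-binding protein, a target of let-7 that represses lin-29 and mab-10 mRNAs (WBGene00003026, chromosome I, 9334800 to 9342496, reverse strand). The summit was 1558 bp upstream in intergenic DNA and 5522 bp from the nearest 5′ end of another gene, that of M04C9.2. The pooled signal was 23.4 at rank 473, with a signal of 11.3 at rank 1391 in replicate 1 and of 15.01 at rank 169 in replicate 2. The minus log10 q was 2.13, so this was a peak within the q of 0.05 that the threshold left out. Within the promoter window the best lin-41 peak ranked 6542, with its summit 819 bp upstream. The gene hbl-1 encodes a Hunchback-like zinc finger factor that keeps L2 fates (WBGene00001824, X, 5822142 to 5827755, forward strand). It had 6 pooled peaks, none of them strong. The best ranked 2995 at 1882 bp upstream, with a signal of 13.3 at rank 764 in replicate 1 and no overlapping peak in replicate 2. Its best promoter-window peak, 577 bp upstream, ranked 7898, with rank 17163 in replicate 1 and rank 4765 in replicate 2.

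**Figure D2:**
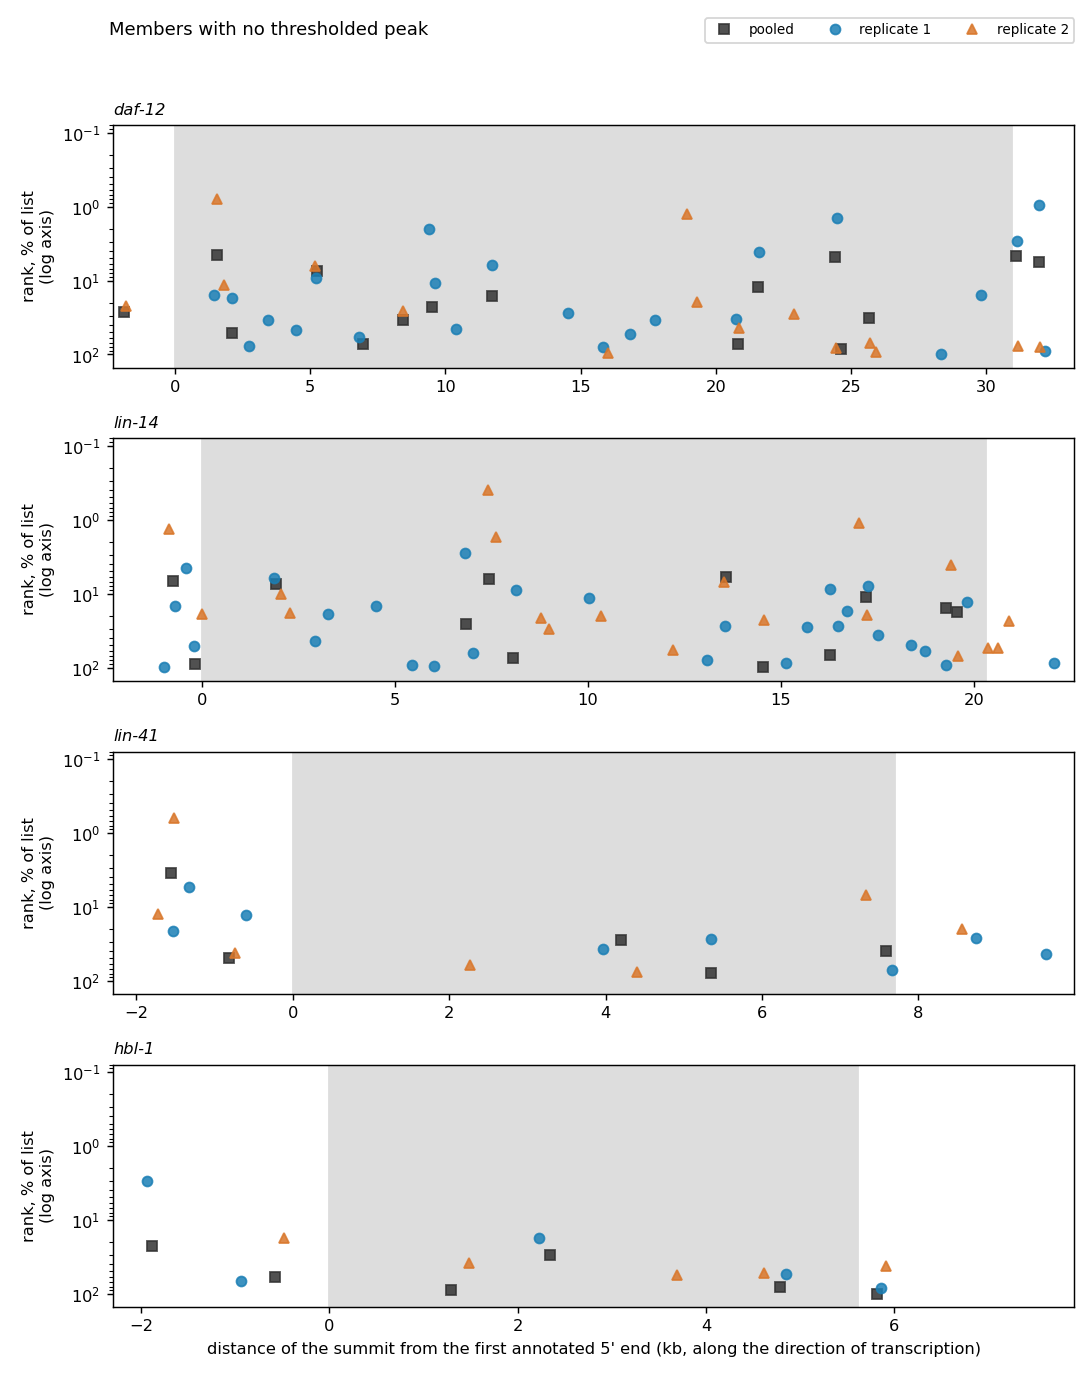
Peak summits by distance from the first annotated 5′ end (kb, along transcription; gene body in grey) against rank as a percent of the list (log axis, strongest at top) for daf-12, lin-14, lin-41 and hbl-1 in the pooled list (squares), replicate 1 (circles) and replicate 2 (triangles). The 15 pooled peaks of daf-12 and 12 of lin-14 are spread along and beside the gene with gaps. No pooled summit lies between 11726 and 20833 bp from the first 5′ end at daf-12, or between 8060 and 13578 bp at lin-14. The strongest lin-41 peak stands 1558 bp upstream.

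Of the late regulators, mab-10 and lin-42 carried thresholded peaks and lin-29 did not. The gene mab-10 encodes a NAB-family cofactor that acts with LIN-29 in the step from larva to adult (WBGene00003107, II, 10528084 to 10534380, forward strand). Its thresholded peak, 10527561 to 10527990, had its summit in intergenic DNA 308 bp upstream, 3302 bp from the nearest 5′ end of another gene, that of F59B10.6. The pooled signal was 37.2 at rank 109. Replicate 1 gave 13.1 at rank 816 and replicate 2 gave 20.8 at rank 72, with summits 6 bp and 0 bp from the pooled one. The replicates therefore share the position of the mab-10 peak closely while differing in its rank. A pooled intronic peak of rank 1226 ranked 4271 in replicate 1 and 616 in replicate 2. A peak at the end of the gene, in the 3′ UTR of the neighbour R166.2, ranked 3521 in the pooled list and 274 in replicate 2, with no overlapping peak in replicate 1.

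The gene lin-42 encodes the worm relative of the circadian protein PERIOD, whose level cycles with the molts (WBGene00018572, II, 1233236 to 1252359, reverse strand, 7 transcripts from 5 annotated 5′ ends). Both of its thresholded peaks lay inside the gene, far from the first 5′ end. The peak at 1239521 to 1239950 was centred on coding sequence 12623 bp past the first 5′ end and 365 bp past an internal one. Its pooled signal was 35.1 at rank 137. Replicate 1 gave 24.1, within the top 0.391% of its list, and replicate 2 gave 8.95 at rank 1195, with summits 2 bp and 3 bp from the pooled one. The peak at 1233771 to 1234200 had its summit in the 3′ UTR, outside any promoter window, with a pooled signal of 31.7 at rank 172. Replicate 1 gave 24.04 at rank 103 and replicate 2 gave 10.3 at rank 659. Replicate 1 placed both peaks much higher in its list than replicate 2 did. Replicate 1 also had lin-42 peaks at ranks 309, 321 and 615, and replicate 2 had others at ranks 686 and 915. In all, 12 pooled peaks lay in or near lin-42, as many as for lin-14, a number reached or passed by 23 of all genes (0.115%). These counts are over 23124 bp searched at lin-42 and 24312 bp at lin-14, beside a median of 6.027 kb over all genes. Per kb searched they were 0.519 at lin-42 and 0.494 at lin-14. The part of gene length in these counts was not tested.

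The gene lin-29 encodes the zinc finger factor that brings about the step from larva to adult in the seam (WBGene00003015, II, 11917642 to 11935343, reverse strand). It had 4 pooled peaks, the best in an intron at rank 3649. Its promoter-window peak, 953 bp upstream, had a pooled signal of 9.86 at rank 8339. The matching summit in replicate 1 was at the same base, with a signal of 9.29 at rank 2842, and the matching peak in replicate 2 ranked 10464 with a signal of 4.65 and its summit 216 bp away. Replicate 2 also held an intronic lin-29 peak with its summit at 11926118 and a signal of 9.14 at rank 1085, within the q of 0.05 (minus log10 q of 1.51). It overlapped the pooled peak at rank 10057, whose match in replicate 1 ranked 13198.

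The strongest peak of any of the 10 genes was that of puf-9, and it was high in both replicates. The gene encodes a Pumilio-family RNA-binding protein that acts with let-7 on hbl-1 through its 3′ UTR (WBGene00004245, X, 5841592 to 5845987, forward strand, 1 annotated 5′ end). The peak at 5841059 to 5841488 had its summit in intergenic DNA 318 bp upstream, 1496 bp from the nearest 5′ end of another gene, that of dct-11. The pooled signal was 57.7 at rank 47, against a median of 34.6 over the thresholded list. Replicate 1 gave 37.5 at rank 34 and replicate 2 gave 22.01 at rank 64, with summits 25 bp and 78 bp from the pooled one. The other pooled peaks of puf-9 ranked 7305 and 9743. The target gene hbl-1 lies 13836 bp away on the same strand of X, with acp-5, F13D11.4 and dct-11 between. The puf-9 peak was the strongest of the 5 pooled peaks between the 2 genes, the next ranking 4209.

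**Figure D3:**
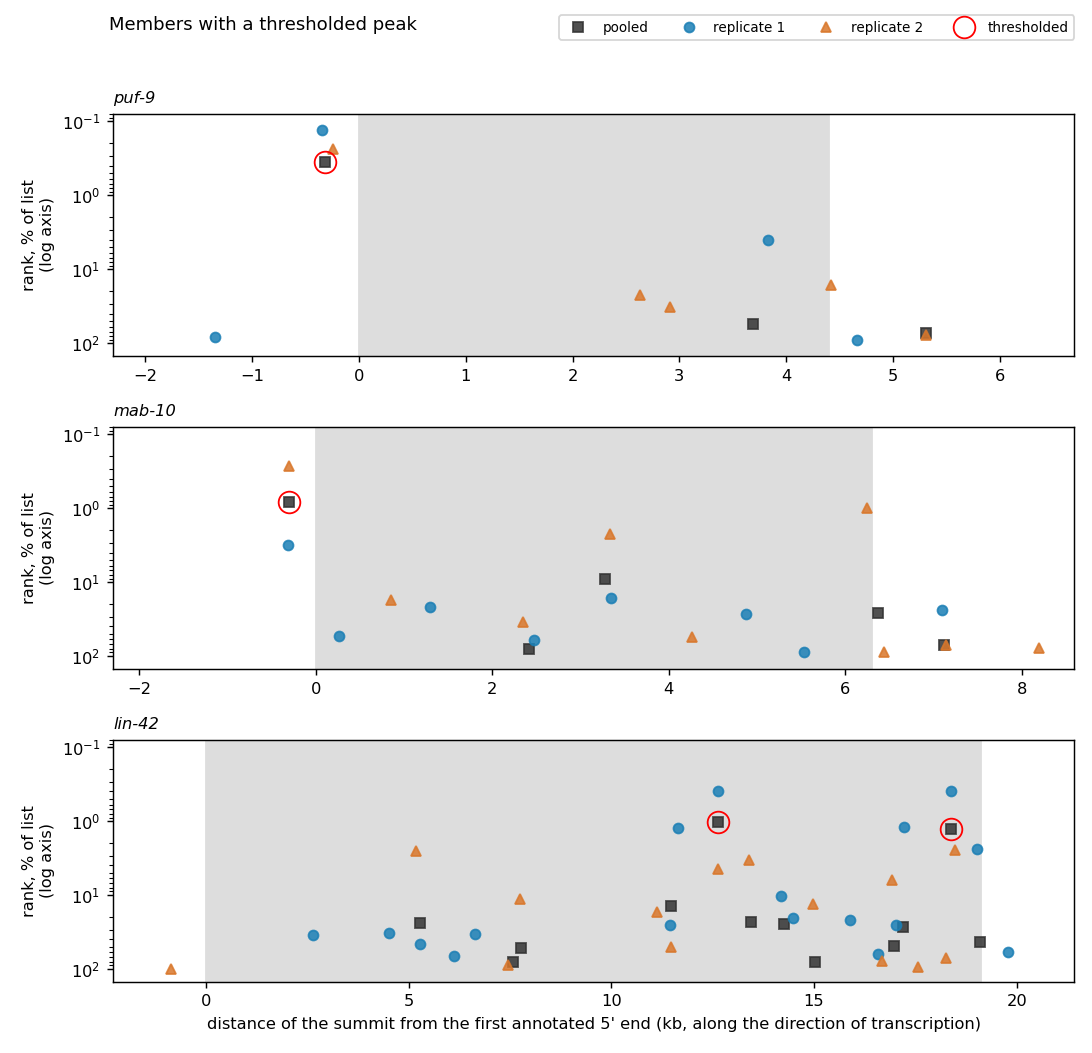
Peak summits by distance from the first annotated 5′ end (kb, along transcription; gene body in grey) against rank as a percent of the list (log axis, strongest at top) for puf-9, mab-10 and lin-42 in the pooled list (squares), replicate 1 (circles) and replicate 2 (triangles), with thresholded peaks ringed. The puf-9 and mab-10 peaks stand 318 bp and 308 bp upstream, and both lin-42 peaks lie inside the gene.

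Taking the 10 genes as a group, 64 distinct pooled peaks lay in or near them, in 157.161 kb searched. That is 0.407 per kb, beside 0.139 per kb over all genes and 0.157 per kb over genes of X, where 4 of the 10 lie. The genes are long and have many starts: the median length searched was 10.997 kb, beside 6.027 kb over all genes, and 8 of the 10 had more than 1 annotated 5′ end, beside 27.4% of all genes. A gene with more 5′ ends has a wider promoter window, and the part of this in the counts was not tested. Among the 64 summits 35 were in introns (54.7%, beside 31.6% of all 13271 nuclear pooled peaks) and 15 were intergenic (23.4%, beside 40.7%). Another 6 were in coding exons (9.38%, beside 19.1%), 8 in 3′ UTRs (12.5%, beside 6.23%) and 0 in 5′ UTRs (beside 2.15%). These shares describe searched regions that are mostly gene body, unlike the genome as a whole. Of the 64, 10 had a q of 0.05 or less, beside 6.16% of all pooled peaks: 4 at daf-12, 2 at lin-42 and 1 each at mab-10, lin-14, lin-41 and puf-9.

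Of the 64 pooled peaks, 52 overlapped a peak in replicate 1 by at least 1 bp, 52 one in replicate 2 and 40 one in both, often at very different ranks. With summits required to lie within 200 bp, 28 were matched in both, and with an overlap of at least 50% of the shorter peak, 29. Where both matched, the median distance from the pooled summit was 64.5 bp in replicate 1 and 95.5 bp in replicate 2. Of these 40, 18 ranked higher in replicate 1 and 22 in replicate 2. The replicate lists held 110 and 90 peaks in or near the genes, of which 13 in replicate 1 (11.8%, beside 3.87% of that list) and 14 in replicate 2 (15.6%, beside 3.7%) were among the 1000 strongest of the list. Only puf-9 and mab-10 had a promoter-window peak among the 1000 strongest of each replicate. With 2 replicates and no contrast no p-value was computed, and whether the labels' biological replicates came from separate cultures was not given in the sources used here.

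**Figure D4:**
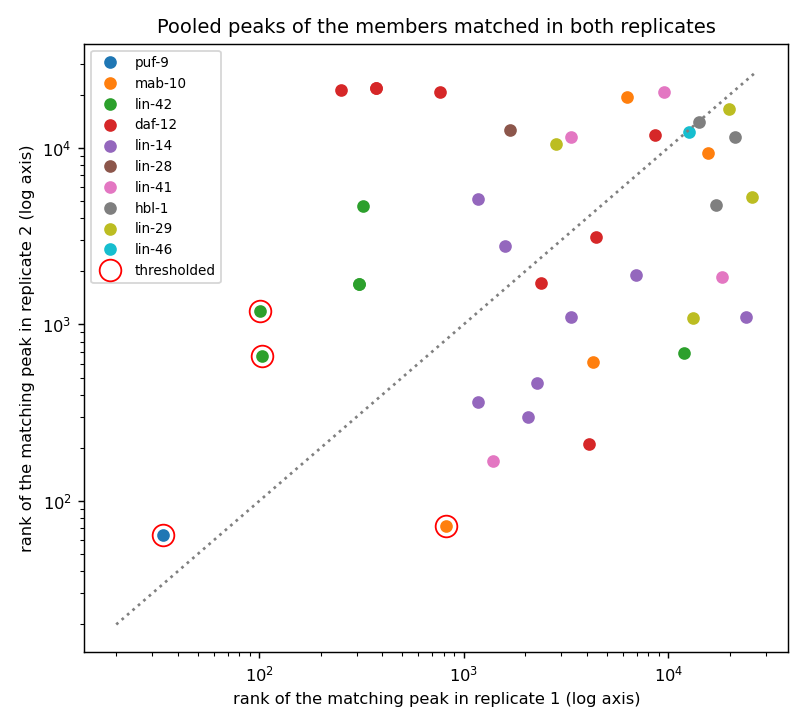
Rank in replicate 1 (x, log axis) against rank in replicate 2 (y, log axis) of the 40 pooled peaks of the 10 genes that overlapped a peak in both, coloured by gene, with thresholded peaks ringed and a dotted line of equal rank. The puf-9 peak is near the line at ranks 34 and 64, and 3 daf-12 positions sit at the top left, with ranks of 250 to 766 in replicate 1 and 20700 to 21851 in replicate 2.

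Another 29 genes of the pathway and its cofactors were looked at (22 protein-coding genes, 6 microRNA genes and the non-coding RNA gene lep-5). Of these, 20 had a pooled promoter-window peak. They were 15 of the 22 protein-coding genes, beside 24.7% of all nuclear protein-coding genes, and 5 of the 6 microRNA genes. For 21 of the 29 there was one in both replicate lists, beside 21.4%. This count and the next include microRNA genes, while the shares are over protein-coding genes only. Another count, of genes with one among the 1000 strongest pooled peaks, was 7, beside 2.95%, and 1 gene had a thresholded one, beside 0.801%. These genes too were listed with earlier results known, and nothing is read from the distance to those shares. The thresholded one was at din-1, which encodes a corepressor that binds DAF-12. Its summit was 46 bp upstream of a 5′ end and within 500 bp of the snoRNA gene F07A11.15, with a pooled signal of 38.7 at rank 96, rank 50 in replicate 1 and rank 13382 in replicate 2. The others were nhl-2 (pooled rank 300), a TRIM-NHL cofactor of the microRNA complex, lin-66 (333), which acts to lower lin-28, ain-1 (375), mir-241 (462), mir-48 (754) and myrf-1 (978), which encodes a membrane-bound transcription factor. The gene ain-1, which encodes a GW182-like partner of Argonaute, also had a thresholded peak at rank 54 in or near it, outside its promoter window. The microRNA genes mir-241 and mir-48 belong to the let-7 family and act on hbl-1. At 443 bp upstream of mir-241, the peak had rank 781 in replicate 1 and rank 70 in replicate 2. At 777 bp upstream of mir-48, it had rank 437 in replicate 1 and rank 10408 in replicate 2. The lin-4 and let-7 genes had promoter-window peaks at pooled ranks 6437 and 7652. At lin-4 the matching peaks had rank 9518 in replicate 1 and rank 424 in replicate 2. At let-7 they had ranks 14436 and 5628, while the best promoter-window peaks of the replicates had ranks 803 and 861. Outside its promoter window, let-7 also had a pooled peak in or near it at rank 283, just below the thresholded list.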

How the data were processed

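The data were deposited peak lists on build ce11 for each of 2 biological replicates, for both pooled, and after thresholding by the irreproducible discovery rate. Per the deposited description, peaks were called by the authors against a control alignment, which was not analysed here. Aligner, caller and versions were not given in the sources used here. Each peak's signal value, its minus log10 q-value (a q-value column by the layout of such lists) and its summit offset in bp were used as the authors deposited them. A peak's rank is its place by signal within its list. The ce10 lists were not used, since no positions were converted between builds.

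Summits were assigned with the Ensembl 115 annotation of ce11, to every gene whose window held them. MicroRNA genes were named through RefSeq genes at the same position, and sequences came from the RefSeq genome. A pooled peak was matched to the strongest replicate peak overlapping it by at least 1 bp. Python 3.11.15, numpy 2.4.6, pandas 2.3.3 and matplotlib 3.10.9 were used, and the assignment was tested on simulated data.

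The text names all 10 genes, the genes sharing their promoter-window peaks, and other pathway genes with a thresholded peak or one of the 1000 strongest pooled peaks in a promoter window. The lin-4 and let-7 genes, ain-1's peak outside its window and the nearest genes to strong summits were added after their values were seen. The genes and lists were chosen with earlier results of these data known. Alternatives were other promoter windows, flanks and assignment rules, 1 annotated 5′ end per gene, fewer peaks, other matching rules and leaving out each replicate.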

Additional observations from a re-analysis of the deposited data

How the results depend on the processing

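The count of genes with a promoter-window peak in both replicate lists moved most. It was 10, and it was 4 with windows from 500 bp upstream to 250 bp downstream, 6 with 1 annotated 5′ end per gene, and 2 (mab-10 and puf-9) when the 1000 strongest peaks of each replicate were used. The pooled count of 9 was 5 with the 1000 strongest pooled peaks, 6 with the narrow windows and 6 with 1 annotated 5′ end per gene. The thresholded count of 3 was 2 with the narrow windows or 1 annotated 5′ end per gene, each time without lin-42. Leaving out a replicate meant taking as many of the strongest peaks from the list of the remaining replicate and was not a repeat of the thresholding. The thresholded count was then 2 without replicate 1 (mab-10 and puf-9) and 2 without replicate 2 (lin-42 and puf-9), and the pooled count was 8 in each case. The 64 pooled peaks ranged from 54 with no flanks to 73 with flanks of 5000 bp, and were 60 without peaks near short RNA genes; the 40 matched in both replicates were 28 when summits had to lie within 200 bp. No paired analysis was possible because there is 1 group. The unknown depth limits every weak peak: an absent match in 1 replicate is not shown to be an absent site.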
